A study of Homo sapiens with 12 samples.

Results

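The 31 genes described here encode the enzymes of glycolysis and of the pentose phosphate pathway, together with the membrane carriers that bring glucose in and take lactate out and the kinases that set the pace of the pathway. They were taken by gene symbol from the deposited table of 58233 genes, and all 31 were found there. Of these, 23 passed the filter on low values (RPKM, reads normalised to transcript length and library size, of 5 or more in no fewer than 3 libraries) and were tested among 7820 genes. The remaining 8 were HK3, ALDOC, ENO2, ENO3, PDK1, PDK3, PFKFB2 and PFKFB4.

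The data were poly(A) RNA sequencing libraries of HL-60, an established human acute myeloid leukaemia line of promyelocytic type that the labels give as wild type ("wt"). Cells were left untreated, or received for 3 h all-trans retinoic acid (ATRA, the ligand of the retinoic acid receptors) at 100 nM, palbociclib (an inhibitor of the cyclin-dependent kinases CDK4 and CDK6) at 500 nM, or both agents, with 3 libraries per group and 12 in all. All groups were grown in RPMI medium with fetal calf serum, no vehicle is named for the untreated cells, and every library came from this single line. Independent experiments are the study's general rule, but nothing more is said of the sequencing triplicates, so p-values measure the spread between these libraries, which may in part be technical.

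Glycolysis splits glucose into pyruvate in the cytosol. Hexokinase traps the sugar, phosphofructokinase makes the committed step, and the later enzymes return ATP, after which lactate dehydrogenase can turn pyruvate into lactate for export. The pentose phosphate pathway branches off after hexokinase, yields NADPH and ribose phosphate, and is known in myeloid cells as the source of NADPH for the oxidative burst, while proliferating leukaemia cells are known for high glucose uptake.

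The libraries held the transcripts of a promyelocyte. MPO, the myeloperoxidase of primary granules, stood at 1077 to 1579 RPKM, and PRTN3, AZU1, CTSG and CD33 were present in every library, whereas ELANE, neutrophil elastase, was listed at 0 or 1. Markers of T cells, B cells, epithelium, fibroblasts and erythroid cells (CD3E, MS4A1, EPCAM, COL1A1 and HBB) were listed at 0 throughout. Of the 5 promyelocyte markers tested, 1 was higher and 0 were lower with ATRA against untreated (AZU1, log2 0.50, adjusted p = 0.0285, limma), with a list median of -0.14. For the combination against palbociclib 0 were higher and 2 were lower, MPO (log2 -0.31, adjusted p = 0.0364, limma) and CTSG (log2 -0.58, adjusted p = 0.0167), and their part in the results was not tested. Over all genes tested 8.71% were higher and 11.6% lower with ATRA, and 5.86% and 6.64% for the combination against palbociclib. With only 5 markers tested, nothing is read from these counts. The sum of RPKM per library ran from 358455 to 390247, and the treated libraries numbered 1 stood apart, sharing 17.9% to 18.9% of their rounded values with the other replicates of their group against 30.5% to 36.5% between the treated libraries numbered 2 and 3. The depth of a library cannot be read from rounded RPKM, so no counting error is given.

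In untreated cells the 31 genes together made up 1.18% ± 0.0248 (SD, n = 3) of all RPKM, and this share was 1.16% ± 0.0425 with ATRA, 1.14% ± 0.0555 with palbociclib and 1.14% ± 0.0273 with both. RPKM is a value per length, so genes may be ranked by it. GAPDH led with 926 ± 27.1 RPKM in untreated cells, followed by ENO1 with 830 ± 31.8, and the libraries of these 2 genes did not overlap in that group. LDHB came next with 521 ± 13.3 and TPI1 with 384 ± 17.4. The libraries of ALDOA (265 ± 17.0) overlapped with those of PGAM1 (274 ± 4.62) and of LDHA (250 ± 6), whereas PGK1 (202 ± 6) and PKM (163 ± 7.09) followed without overlap. The entry and control points were far lower on the same scale. HK2 stood at 35.3 ± 2.08 RPKM, SLC2A1 at 9.33 ± 0.577 and PFKFB3 at 5.33 ± 0.577. Several isozymes gave little or no signal: HK3, ENO2 and PFKFB2 were listed at 0 in all 12 libraries, PFKFB4 at 0 or 1 and ENO3 at 1 or 2.

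**Figure D1:**
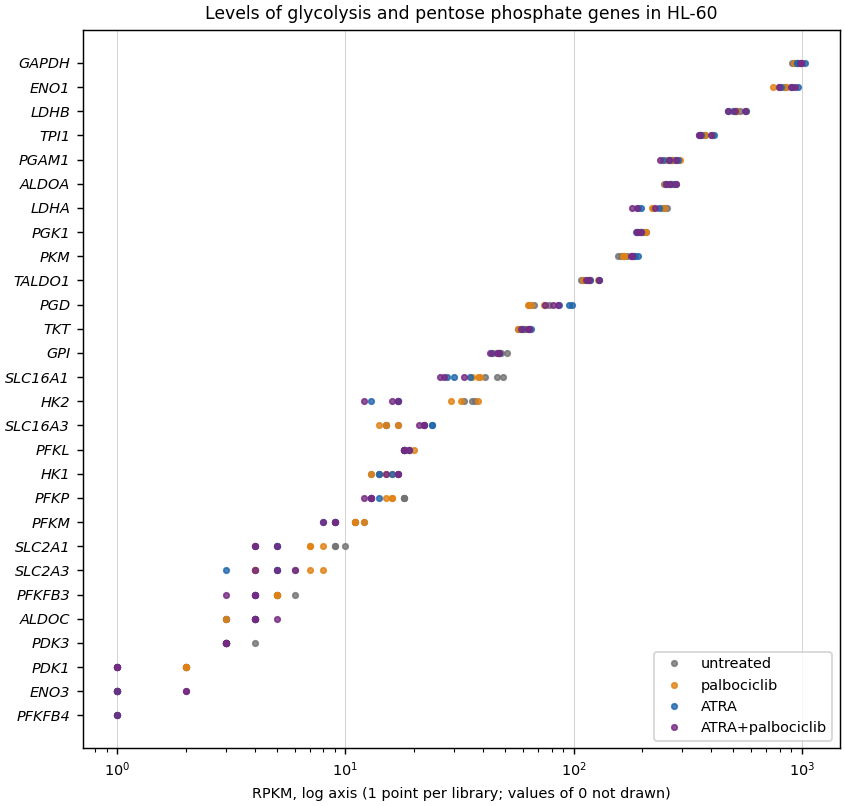
RPKM of the 28 members above 0 in any library, on a log axis, with 1 point per library coloured by treatment and genes ordered by their mean over 12 libraries. GAPDH and ENO1, enzymes of the later steps, sit at the top right. HK2 and SLC2A1 separate by colour into a higher and a lower cloud, and equal values of different libraries cover each other.

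With ATRA 1 of 2 tested glucose carriers (SLC2A1), 1 of 2 tested hexokinases (HK2) and 2 phosphofructokinases (PFKP and PFKM) were lower, while the differences of most enzymes further down did not pass the test. Against untreated cells 3 of the 23 tested members were higher (SLC16A3, PGD and PKM) and 6 were lower (HK2, SLC2A1, SLC16A1, PFKP, PFKFB3 and PFKM) at an adjusted p under 0.05 in limma. PFKFB3 is kept in this and later counts, but it passed the filter only through the libraries without ATRA, so its call is not support. Among all genes 8.71% were higher and 11.6% were lower in this comparison, that is 681 and 909 genes, a split that became 522 and 1114 when the libraries were scaled to equal sums and 696 and 535 when they were centred on their medians. The median log2 fold change was -0.03 over the 23 members and -0.01 over all genes, and the members ranged from -1.18 to 0.57. In bulk RNA, fewer cells with a transcript and less of it per cell cannot be told apart. The combination with palbociclib against palbociclib alone is a second comparison of ATRA whose group means use none of the same libraries. It is not independent, since the spread was estimated from all 12 libraries. Same-numbered ATRA and combination libraries also deviated from their group means together (r 0.782 to 0.908). In this second comparison 1 member was higher and 6 were lower, against 5.86% and 6.64% of all genes. All 9 members called with ATRA alone had the same sign in it, and 7 of the 9 were called again in the same direction. Set against all genes tested, these are 7 of 23 members, while 11.2% of all genes (878, of 1590 called with ATRA alone) were called in the same direction in both.

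HK2 (chr2:74834127-74893359, plus strand, hg38, the whole gene in the GENCODE annotation) encodes hexokinase 2, the inducible hexokinase that binds the outer mitochondrial membrane, and it showed the largest change of any member. It read 36, 33 and 37 RPKM in the untreated libraries and 17, 13 and 17 with ATRA. With palbociclib it read 29, 32 and 38 RPKM and with both agents 16, 12 and 17, so every library with ATRA was below every library without it. The log2 fold change was -1.18 (SE 0.15, limma adjusted p = 0.000317) for ATRA against untreated and -1.14 (SE 0.15, adjusted p = 0.00051) for the combination against palbociclib. HK1, the housekeeping hexokinase, read 13, 14 and 14 RPKM untreated and 14, 17 and 16 with ATRA, a log2 difference of 0.19 that missed the threshold (adjusted p = 0.189, limma). The sum of HK1, HK2 and HK3 went from 49 ± 2 RPKM to 31.3 ± 1.53 with ATRA (n = 3 each), and the share of HK2 in it from 72.1% ± 1.68 to 49.9% ± 5.92. With palbociclib alone that share was 69.1% ± 2.52, and with both agents 47.7% ± 5.50. The ratio of HK2 to HK1 in a library lay between 2 and 2.77 in the 6 libraries without ATRA and between 0.706 and 1.21 in the 6 with it.

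SLC2A1 (chr1:42925353-42958893, minus strand) encodes GLUT1, the basal glucose carrier of most cells. Its levels were 9, 9 and 10 RPKM untreated, 5, 4 and 5 with ATRA, 7, 7 and 8 with palbociclib and 4, 4 and 5 with both. The log2 fold change was -0.99 (SE 0.12, adjusted p = 0.000198, limma) for ATRA against untreated and -0.75 (adjusted p = 0.00163) for the combination against palbociclib. Both agents alone gave values below all untreated libraries, but the palbociclib difference of -0.34 missed the threshold (adjusted p = 0.142, limma). SLC2A3, which encodes the high-affinity carrier GLUT3, ranged from 3 to 8 RPKM and overlapped between all groups.

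The committed step is shared by the liver, muscle and platelet types of phosphofructokinase, and they moved unequally. PFKP, the platelet type, read 18 RPKM in each of the untreated libraries and 14, 13 and 13 with ATRA. In the palbociclib libraries it read 15, 16 and 16 RPKM, and 13, 13 and 12 with both agents. Its log2 fold change was -0.43 (SE 0.06, adjusted p = 0.000359, limma) with ATRA and -0.30 (adjusted p = 0.00439) for the combination against palbociclib. PFKM, the muscle type, read 11, 12 and 11 RPKM untreated, the same 3 values with palbociclib, and 9, 9 and 8 both with ATRA and with the combination. The difference was -0.38 on the log2 scale in each ATRA comparison (SE 0.08, limma adjusted p = 0.00474 and 0.00662). PFKL, the liver type, stayed between 18 and 20 RPKM in all 12 libraries, with a log2 difference of 0 for ATRA against untreated and a 95% interval of -0.12 to 0.12. The summed RPKM of the family was 47.7 ± 0.577 untreated and 40.3 ± 0.577 with ATRA, with no overlap.

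PFKFB3 encodes the bifunctional enzyme that makes fructose 2,6-bisphosphate, the strongest activator of phosphofructokinase. It was low, at 6, 5 and 5 RPKM untreated, 5 in every palbociclib library, 4 in every ATRA library and 3, 4 and 4 with both agents. The log2 difference was -0.40 for ATRA and -0.45 for the combination against palbociclib. PFKFB3 passed the filter only through the libraries without ATRA, in which it is higher, so no test is given for it. These steps are 1 or 2 units of the rounding. Its place among the called members with ATRA was lost when any 1 of the 6 libraries compared was left out. Its place in the second comparison was lost without palbociclib replicate 1, 2 or 3 or without combination replicate 1. PDK1, a kinase that shuts pyruvate dehydrogenase, was too low to be tested. It was listed at 2 RPKM in all 6 libraries without ATRA and at 1 in all 6 with ATRA, and since rounding hides any spread, no test is given for it. PDK3, a relative of it, was listed at 3 or 4 in every library.

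**Figure D2:**
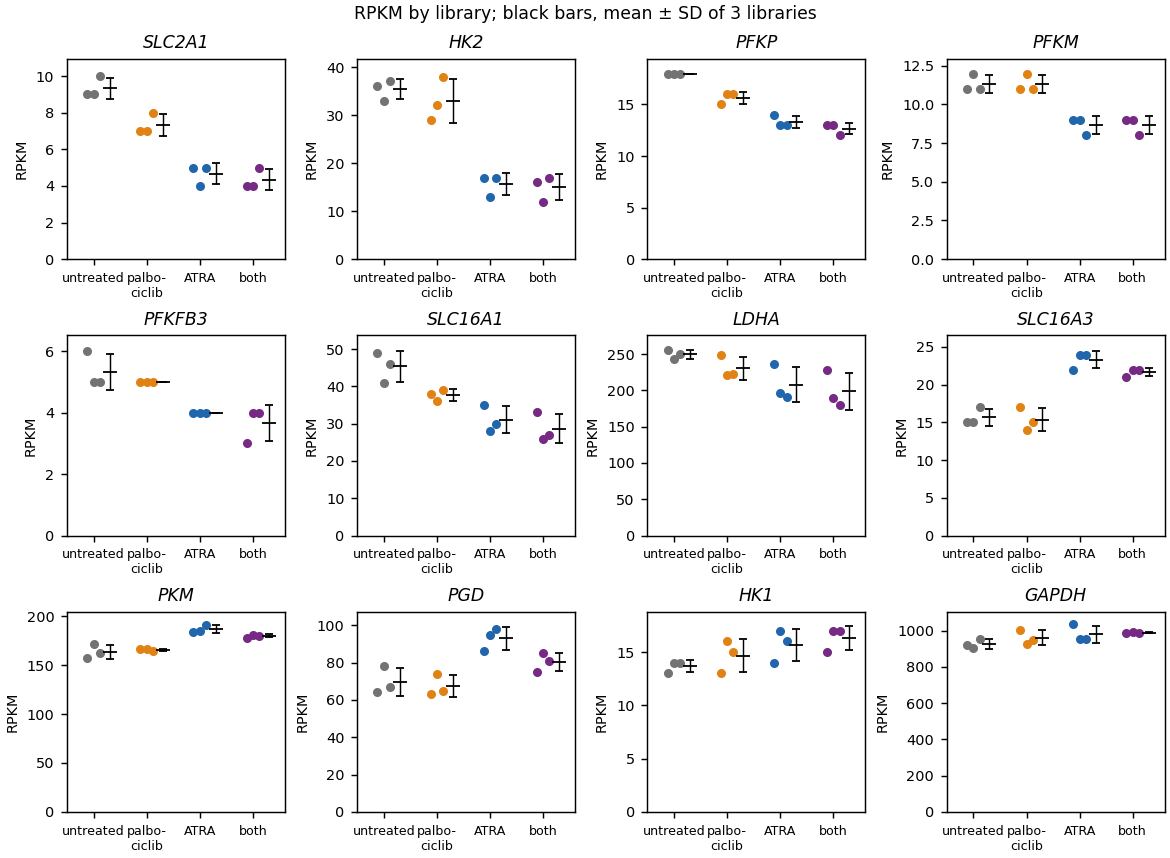
RPKM of 12 members in each library on linear axes from 0, by treatment, with black bars for the mean ± SD of 3 libraries. From SLC2A1 to SLC16A1 the ATRA and combination points lie below the untreated and palbociclib points, in SLC16A3 and PKM they lie above, and GAPDH differs little in comparison with its level.

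Most of the other enzymes of the main path did not pass the test. GPI, ALDOA, TPI1, GAPDH, PGK1, PGAM1 and ENO1, 7 tested members, were called in none of the comparisons. GAPDH, often used as a reference transcript, read 920, 903 and 956 RPKM untreated and 1035, 952 and 957 with ATRA, a log2 difference of 0.08 with a 95% interval of -0.04 to 0.21. ALDOA differed by 0.00 (95% interval -0.14 to 0.14) and ENO1 by 0.10 (-0.10 to 0.30). PKM, the pyruvate kinase of the last step, was the exception among the payoff enzymes. It read 157, 171 and 162 RPKM untreated, 184, 185 and 191 with ATRA, 166, 166 and 164 with palbociclib and 178, 181 and 180 with both, and all 6 libraries with ATRA were above the 6 without. The log2 fold change was 0.19 (SE 0.05, adjusted p = 0.012, limma), but it lost the call under each of the 3 other scalings of the libraries (adjusted p 0.0911 with equal sums, 0.0671 with median centring and 0.247 with quantile normalization). For the combination against palbociclib it was 0.12 (adjusted p = 0.127, and 0.041 with a block for the replicate number). RPKM per gene do not separate the PKM1 and PKM2 splice forms.

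At the lactate end the carriers moved in opposite directions. SLC16A1 encodes MCT1, the carrier that moves lactate either way, and read 49, 41 and 46 RPKM untreated against 35, 28 and 30 with ATRA. It read 38, 36 and 39 with palbociclib and 33, 26 and 27 with both agents. SLC16A3 encodes MCT4, the export carrier of strongly glycolytic cells, and read 15, 15 and 17 RPKM untreated against 22, 24 and 24 with ATRA. It read 17, 14 and 15 with palbociclib and 21, 22 and 22 with both, so that for each gene the 6 libraries with ATRA were separate from the 6 without. The log2 fold change with ATRA was -0.55 (SE 0.11, adjusted p = 0.00464, limma) for SLC16A1 and 0.57 (SE 0.08, adjusted p = 0.000563) for SLC16A3. For the combination against palbociclib these were -0.40 (adjusted p = 0.0333, limma) and 0.50 (adjusted p = 0.00179). The SLC16A1 call in that second comparison was lost (adjusted p 0.0503 to 0.137) when any of the palbociclib replicates, combination replicates 2 or 3, untreated replicate 3 or ATRA replicate 3 was left out. The share of SLC16A3 in the sum of both carriers was 25.7% ± 1.99 untreated, 28.9% ± 1.75 with palbociclib, 43.1% ± 3.96 with ATRA and 43.2% ± 3.77 with both.

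LDHA, the lactate dehydrogenase subunit that favours lactate formation, read 256, 244 and 250 RPKM untreated and 236, 197 and 191 with ATRA. These groups did not overlap, yet the log2 difference of -0.27 missed the threshold (SE 0.10, adjusted p = 0.0841, limma). It was called with equal library sums (adjusted p = 0.0157, limma) and with quantile normalization (0.00089). ATRA replicate 1 was the highest of its group, and LDHA was called without combination replicate 1 (0.0432) and without ATRA replicate 1 (log2 -0.37, adjusted p = 0.0259, limma). LDHB, the subunit that favours pyruvate, ranged from 473 to 572 RPKM and overlapped between all groups. The share of LDHA in their sum was 32.4% ± 0.764 untreated, 30.3% ± 0.208 with palbociclib, 28.7% ± 0.514 with ATRA and 27.8% ± 0.916 with both, and on this share, which compares the genes within a library, all 6 libraries with ATRA were below the 6 without.

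**Figure D3:**
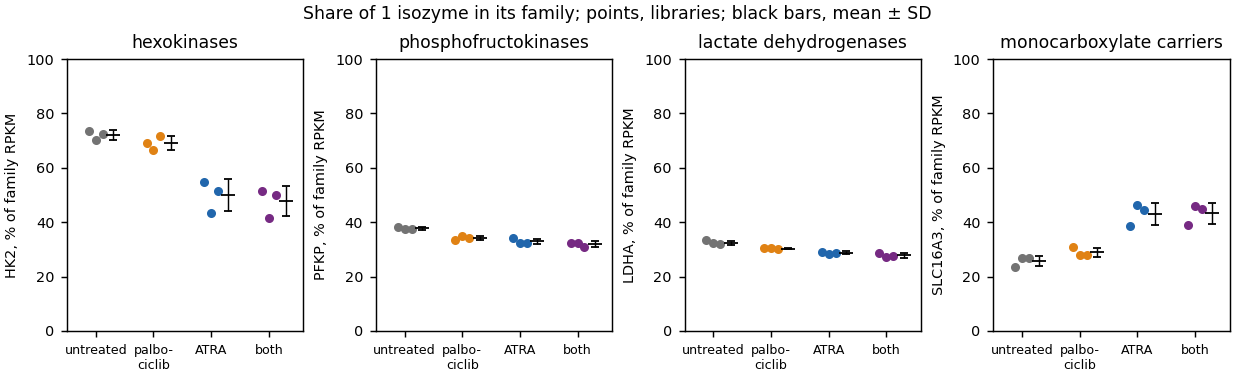
Share of 1 isozyme or carrier in the summed RPKM of its family, in percent, for each library, with black bars for the mean ± SD of 3 libraries. The mean share of HK2 is 72.1% untreated and 49.9% with ATRA, that of SLC16A3 25.7% and 43.1%, and the shares of PFKP and LDHA shift by a few points.

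In the pentose phosphate branch PGD, which encodes 6-phosphogluconate dehydrogenase and yields NADPH, was higher with ATRA. It read 64, 78 and 67 RPKM untreated and 86, 95 and 98 with ATRA, with no overlap. With palbociclib it read 63, 74 and 65 RPKM and with both 75, 85 and 81. The log2 fold change was 0.42 (SE 0.09, adjusted p = 0.00811, limma) for ATRA and 0.26 (adjusted p = 0.104) for the combination against palbociclib, where the groups did not overlap and the fit with a replicate block gave an adjusted p of 0.0061. TALDO1 and TKT, the enzymes of the non-oxidative arm, ranged from 108 to 129 and from 57 to 65 RPKM and were called in none of the comparisons.

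**Figure D4:**
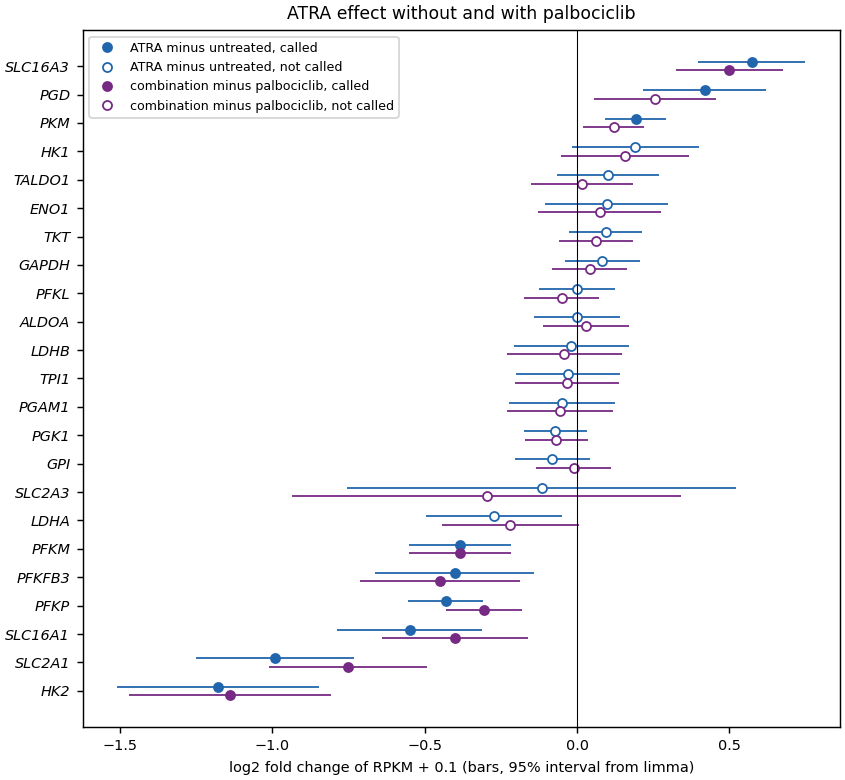
Log2 fold change of RPKM + 0.1 for the 23 tested members, with the 95% interval from limma, for ATRA against untreated (blue) and the combination against palbociclib (purple), which share no library. Filled points were called at an adjusted p under 0.05, and HK2 and SLC2A1 lie farthest to the left and SLC16A3 farthest to the right in both.

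The libraries were also divided by the presence of ATRA. All 6 libraries with ATRA were below the 6 without it for HK2, SLC2A1, PFKP, PFKM, SLC16A1 and PFKFB3, 6 of 23 tested members against 5.98% of all genes tested. They were above for SLC16A3 and PKM, 2 of 23 members against 5.43% of all genes. PFKFB3, counted among the lower ones, passed the filter only through the libraries without ATRA. The PGD values overlapped, at 63 to 78 RPKM without ATRA and 75 to 98 with it.

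Palbociclib alone gave no call among the 23 members in limma, while 0.908% of all genes were higher and 3.16% were lower (71 and 247 genes, or 28 and 305 with equal library sums and 97 and 101 with median centring). At an unadjusted p under 0.05 there were 1359 of the 7820 genes tested, so nothing is read from the count among the members. That count was 3 of 23, all lower: SLC2A1 (log2 -0.34), PFKP (-0.20) and SLC16A1 (-0.26), with limma adjusted p of 0.142, 0.077 and 0.236. For each of them the palbociclib libraries lay below all untreated ones and above all ATRA ones. HK2, in contrast, read within its untreated range or close to it, with a log2 difference of -0.11 and a 95% interval of -0.44 to 0.23.

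The combination against untreated cells gave 2 higher members (SLC16A3 and PKM) and 7 lower ones, the 6 lower with ATRA and LDHA. Among all genes 12.7% were higher and 17.7% were lower, 996 and 1381 genes, against 730 and 1619 with equal library sums and 1152 and 793 with median centring. HK2 had a log2 fold change of -1.24 (adjusted p = 0.000136, limma) and SLC2A1 of -1.10 (adjusted p = 6.69e-05). PFKP had a log2 fold change of -0.50, PFKM of -0.38 and SLC16A1 of -0.66, with limma adjusted p from 8.39e-05 to 0.00322. PFKFB3 differed by -0.54 and is given without a test. The PFKM call was lost with median centring (0.0508). LDHA read 228, 189 and 180 RPKM with both agents against 256, 244 and 250 untreated, a log2 fold change of -0.34 (adjusted p = 0.0284, limma) that lost its call when any untreated replicate or combination replicate 2 or 3 was left out (0.0587 to 0.105) and with median centring (0.173). SLC16A3 was higher by 0.47 (adjusted p = 0.00135, limma) and PKM by 0.14 (adjusted p = 0.0404), the latter lost under each other scaling (0.0645 to 0.589) and without untreated replicate 1 or 3, ATRA replicate 2 or any combination replicate (0.0538 to 0.115). PGD was 0.21 higher on the log2 scale and missed the threshold (adjusted p = 0.112, limma), as did HK1, which read 15, 17 and 17 RPKM with both agents (log2 difference 0.25, adjusted p = 0.0666).

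Adding palbociclib to ATRA changed none of the 23 members by the limma test, and among all genes 0% were higher and 0.115% lower. A single member, PGD, had an unadjusted p under 0.05, beside 287 of the 7820 genes tested. Its 3 combination libraries were all below the 3 ATRA libraries, with a log2 difference of -0.21 (95% interval -0.41 to -0.01, adjusted p = 1). PKM also lay below without overlap, at 178, 181 and 180 RPKM with both agents against 184, 185 and 191 with ATRA (log2 difference -0.05, 95% interval -0.16 to 0.05). The share of all genes without overlap in this comparison was not counted, so nothing is read from either separation. The interval for HK2 was -0.40 to 0.26 and that for SLC2A1 -0.36 to 0.15. The departure from additivity, that is how far the palbociclib effect under ATRA differed from its effect in its absence, was called for 0 members and for 0% of all genes in either direction. At an unadjusted p under 0.05 there were 0 members and 236 of the 7820 genes tested. The median departure over the members was -0.02 on the log2 scale, with a range from -0.18 to 0.24.

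With a block for the replicate number, 11 members were called for the combination against palbociclib in limma, 4 higher and 7 lower, against 7 without the block. The added ones were HK1, PKM and PGD, higher, and LDHA, lower, and over all genes the share called was then 23.5% in place of 12.5%.

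Members that differ between treatments can be read beside their promoters. The RefSeq promoter table (GRCh38.p14, 250 bases before to 50 after each start) held 55 windows for 28 of the 31 genes, and the deposited values do not say which start was used. The E-box CACGTG, the site of MYC and related factors, was found in 10.9% of the member windows and 7.26% of all 35116, its part ACGTG, the core of the hypoxia response element, in 36.4% and 21.4% (every CACGTG also holds ACGTG). The retinoid half-site AGGTCA was found in 16.4% and 13.8%, and AGTTCA in 3.64% and 10.4%, all on both strands. Among the members lower with ATRA or the combination, the E-box was in 3 of 18 windows, 1 each of HK2, LDHA and PFKFB3. PFKFB3 passed the filter only through the libraries without ATRA, so its place in this set is not support. LDHA entered the set only through the combination against untreated, a call that held in 14 of 24 alternative settings. Nothing is read from the count of windows. Several of the 18 are overlapping windows of PFKM, and SLC16A1, also lower, had no window. The 3 windows were chosen because they hold a whole E-box, and a link to the transcript level was not tested. They are shown 5′ to 3′ with CACGTG and ACGTG matches in capitals. A match on the other strand reads CACGT.
HK2 (chr2:74834920-74835219, plus strand): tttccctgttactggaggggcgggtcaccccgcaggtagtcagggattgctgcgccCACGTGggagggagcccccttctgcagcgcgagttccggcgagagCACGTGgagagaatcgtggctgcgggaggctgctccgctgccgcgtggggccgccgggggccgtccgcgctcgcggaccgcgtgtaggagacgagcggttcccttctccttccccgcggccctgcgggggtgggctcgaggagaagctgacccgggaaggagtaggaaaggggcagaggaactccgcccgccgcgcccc
LDHA (chr11:18394313-18394612, plus strand): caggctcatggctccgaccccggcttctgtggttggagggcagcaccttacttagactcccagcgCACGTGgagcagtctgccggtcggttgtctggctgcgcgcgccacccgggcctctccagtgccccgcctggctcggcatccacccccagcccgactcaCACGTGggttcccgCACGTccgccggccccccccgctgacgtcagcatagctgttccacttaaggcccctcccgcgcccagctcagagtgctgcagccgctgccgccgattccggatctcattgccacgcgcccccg
PFKFB3 (chr10:6202682-6202981, plus strand): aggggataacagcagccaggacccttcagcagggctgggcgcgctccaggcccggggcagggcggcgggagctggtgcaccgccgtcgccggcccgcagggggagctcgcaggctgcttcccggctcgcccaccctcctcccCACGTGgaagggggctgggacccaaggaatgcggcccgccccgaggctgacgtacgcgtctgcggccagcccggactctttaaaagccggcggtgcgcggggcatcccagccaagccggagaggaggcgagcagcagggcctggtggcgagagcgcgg
The windows shown for HK2 and LDHA each hold 2 E-boxes and that of PFKFB3 holds 1, while the other window of each of these genes holds none. ALDOA and GAPDH, which did not pass the test, also hold one, in 2 of the 21 windows of tested members that were not called, as does ALDOC, which was too low to be tested, and none of the 7 windows of SLC16A3, PGD and PKM does. A match describes the letters of the window and not the binding of a factor.

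Genes beside the members were read from lists of the same and neighbouring pathways. Of 32 further glycolysis and transport genes, 10 were tested, and with ATRA 2 were higher and 0 lower (8.71% and 11.6% of all genes), with palbociclib 0 and 0, and with the combination against untreated 2 and 1. Both higher genes passed the filter only through the libraries with ATRA, in which they are high, so their values are given without a test. SLC2A5, which encodes the fructose carrier GLUT5, read 4, 3 and 3 RPKM untreated and 35, 44 and 41 with ATRA, and it read 4, 3 and 3 with palbociclib and 37 to 48 with both agents. SLC2A6, a relative, read 2 RPKM in each untreated library and 5, 10 and 9 with ATRA. SLC2A1, a carrier of the same family, was above SLC2A5 in RPKM in every library without ATRA and below it in every library with ATRA. PGAM4, a near copy of PGAM1 whose reads cannot be told apart with certainty, was the only further member of the list called with the combination (log2 -0.17, adjusted p = 0.0186, limma), and this call was lost without untreated replicate 1 and with median centring or quantile normalization (up to 0.407).

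Of 11 further pentose phosphate genes, 6 were tested, and with ATRA 1 was higher and 2 were lower, beside 8.71% and 11.6% of all genes. PGLS, the lactonase just upstream of PGD, was higher by 0.31 (adjusted p = 0.0246, limma), a call that held in 16 of 24 alternative settings and was lost, among others, with equal library sums and without untreated replicate 1 or 2 or ATRA replicate 2 or 3 (up to 0.0928). PRPS2, which makes the ribose donor for nucleotides, read 34.7 ± 2.31 RPKM untreated, 23.3 ± 2.08 with ATRA and 24.3 ± 1.15 with palbociclib (log2 -0.57 and -0.51, adjusted p = 0.00203 and 0.0158, limma). The palbociclib call was lost with median centring and without untreated replicate 1 or 2 or palbociclib replicate 3 (up to 0.0906). RPE was lower with ATRA (log2 -0.34, adjusted p = 0.0487, limma), a call that held in 7 of 24 alternative settings. With palbociclib 0 were higher and 1 lower (0.908% and 3.16% of all genes). With the combination against untreated 1 was higher and 2 were lower (12.7% and 17.7% of all genes). PRPS1 was among the lower ones with the combination (log2 -0.34, adjusted p = 0.0137, limma), a call that held in 20 of 24 alternative settings. Of 14 genes at the entry of pyruvate into mitochondria 10 were tested, and with ATRA only PDP2 was called (higher), beside 8.71% higher and 11.6% lower of all genes. PDP2, the phosphatase that reactivates pyruvate dehydrogenase and so opposes the PDK kinases, read 5, 5 and 4 RPKM untreated and 11, 16 and 14 with ATRA (log2 1.52, adjusted p = 7.68e-05, limma). PCK2, the mitochondrial PEP carboxykinase, was higher with palbociclib (log2 0.49, adjusted p = 0.00421, limma). With the combination against untreated 3 of these 10 were higher (PDP2, PCK2 and PDHX) and 1 was lower (DLAT), beside 12.7% and 17.7% of all genes. The PDHX call (log2 0.21, adjusted p = 0.0235, limma) held in 18 of 24 alternative settings. The DLAT call (log2 -0.18, adjusted p = 0.0467, limma) held in 9 of 24. None of the 4 tested genes of serine synthesis was called with ATRA or palbociclib alone, and PSAT1 was lower for the combination against palbociclib (log2 -0.36, adjusted p = 0.0293, limma). The PSAT1 call held in 14 of 24 settings and was lost, among others, with median centring and without any palbociclib replicate or combination replicate 2 or 3 (up to 0.115).

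Among 18 regulators of glycolysis 11 were tested, and with ATRA 1 was higher and 2 were lower, beside 8.71% and 11.6% of all genes, and with so few genes tested nothing is read from the counts of these lists. MYC, a factor known to drive glycolytic genes through E-boxes, read 168, 184 and 205 RPKM untreated and 72, 73 and 103 with ATRA, a log2 fold change of -1.18 (SE 0.18, adjusted p = 0.000922, limma). MLX, the partner of the glucose-sensing factors, was lower (log2 -0.29, adjusted p = 0.00843, limma), and TXNIP, which restrains glucose uptake and is their classical target, was higher by 0.41 (adjusted p = 0.00371). TXNIP read 45, 44 and 49 RPKM untreated, 57, 64 and 63 with ATRA, 52, 55 and 59 with palbociclib and 67, 73 and 79 with both. MLXIPL, which encodes the glucose-sensing factor ChREBP, was listed at 0 in all 6 libraries without ATRA and at 3 or 4 in all 6 with it, and was too low to be tested. HIF1A, the oxygen-regulated subunit, ranged from 4 to 9 RPKM and was not called. With palbociclib 1 regulator was higher and 0 lower, and with the combination 3 were higher and 2 were lower. The palbociclib call was PRKAG1 (log2 0.29, adjusted p = 0.0466, limma), which held in 6 of 24 alternative settings. HIF1AN was higher with the combination against untreated (log2 0.40, adjusted p = 0.0299, limma), a call that held in 16 of 24.

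Of 16 hypoxia targets outside glycolysis 7 were tested, and with ATRA 2 were higher and 1 was lower, beside 8.71% and 11.6% of all genes, and 4 were not called. DDIT4, an inhibitor of mTORC1 signalling, read 4, 5 and 3 RPKM untreated and 30, 33 and 25 with ATRA (log2 2.86, adjusted p = 3.84e-06, limma), and was also higher with palbociclib (log2 1.05, adjusted p = 0.0122), a call lost without untreated replicate 1 or palbociclib replicate 2 and in the fit of the compared groups alone (up to 0.159). NDRG1 read 2 RPKM in each untreated library and 9, 14 and 14 with ATRA, and as it passed the filter only through the libraries with ATRA, no test is given for it. ERO1A, an oxidase of the endoplasmic reticulum, was lower (log2 -0.52, adjusted p = 0.00228, limma).

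**Figure D5:**
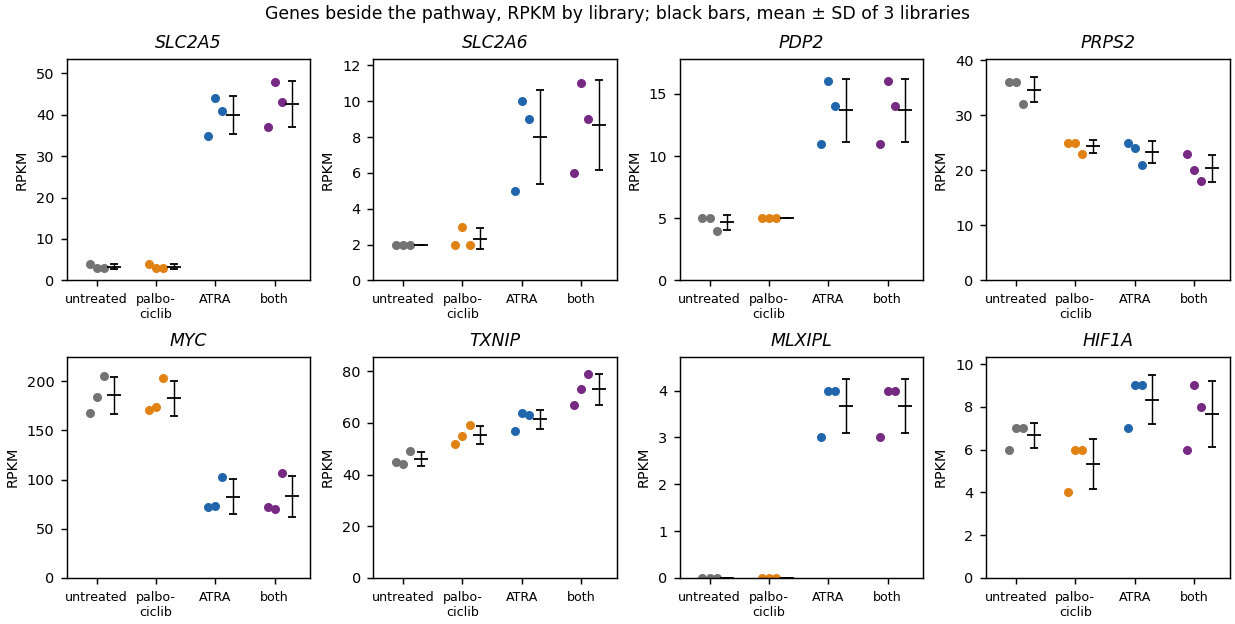
RPKM of 8 genes beside the pathway in each library on linear axes from 0, by treatment, with black bars for the mean ± SD of 3 libraries. SLC2A5, SLC2A6, PDP2 and MLXIPL are high only in the libraries with ATRA, MYC is low in those libraries, PRPS2 is lower in all 3 treated groups than untreated, and HIF1A overlaps.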

How the data were processed

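Poly(A) libraries were made with the TruSeq kit and sequenced on an Illumina HiSeq, and the submitters' processing notes name HISAT2 and HTSeq and the build hg38. HTSeq was used by the authors in its default settings, and the assignment of reads shared by near copies such as PGAM1 and PGAM4 is uncertain. The deposited values are RPKM that the authors rounded to whole numbers, so they were handled as a score that moves in steps of 1. Replicates were not pooled, and no count model was used.

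Groups and replicate numbers came from the sample labels. Limma 3.58.1 in R 4.3.3 was fitted to log2(RPKM + 0.1) with 1 mean per group over 12 libraries and a variance trend, for the 7820 genes that reached 5 RPKM in 3 or more libraries. Benjamini-Hochberg adjusted p-values were computed over all of them, those under 0.05 are termed called, and fold changes are on the log2(RPKM + 0.1) scale, which understates low genes. The design had assumed RPKM with decimals. Values are mean ± SD. The script was tested on simulated data.

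The members, the lists and the filter were chosen with earlier results of these data known. By rule all 31 members are named, and from other lists the called genes with the largest changes. The planned limit of 4 per list was passed for the regulators of glycolysis. MLXIPL and HIF1A were named after their values were seen.

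Same-numbered libraries of different treated groups deviated together (r 0.438 to 0.908 over 9 pairs), but those of untreated and treated groups less so (0.0453 to 0.367). The main fits used no pairs in any comparison, also between treated groups. A fit with the replicate number as a block was run as an alternative for every comparison. Other pseudocounts, filters, scalings, a variance without trend, fits of the compared groups alone, a replicate block and leaving out libraries were tried. Plots used Python 3.11.15.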

Additional observations from a re-analysis of the deposited data

How the results depend on the processing

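Each comparison was repeated under 24 alternatives, 12 of which left out 1 library each, and 1 of which (all libraries numbered 1 left out) was chosen after seeing the data. No called member changed sign. HK2, SLC2A1, PFKP and SLC16A3 were called with ATRA against untreated under all 24, with the lowest absolute log2 fold changes at -1.05, -0.87, -0.39 and 0.53. At an adjusted p under 0.001 the members called fell from 9 to 4 for ATRA (4.72% of all genes), from 9 to 3 for the combination against untreated (8.04%) and from 7 to 1 for the combination against palbociclib (3.11%). Under the filter of at least 1 RPKM, 1 member (PFKP) was called for palbociclib (2.78% of all genes). That filter ended the LDHA call for the combination against untreated (adjusted p = 0.0555, limma). For the combination against palbociclib it ended the SLC16A1 call (0.0687) and added PKM (0.0338). ALDOC and PDK1 were then also called, but within the steps of the rounding. ALDOC read 3 RPKM in each untreated library, 4 in each ATRA library and 4, 5 and 4 with both agents. Leaving out 1 library gave 8 to 10 members for ATRA (1071 to 1758 of all genes), 0 to 0 for palbociclib (173 to 302) and 7 to 10 for the combination against untreated (1754 to 2521). It gave 0 to 0 against ATRA (3 to 13), 5 to 7 against palbociclib (666 to 1042) and 0 to 0 for the departure (0 to 1). Without the libraries numbered 1, ATRA gave 4 higher and 7 lower members, adding HK1 and LDHA (25.3% of all genes).

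With the replicate number as a block, 11 members were called for the combination against palbociclib (23.5% of all genes), 11 for ATRA (HK1 and LDHA added, 35.4% of all genes) and 11 for the combination against untreated (HK1 and PGD added, 45.2%). The same limma fit called 3 for palbociclib (SLC2A1, PFKP and SLC16A1, adjusted p 0.0209, 0.0342 and 0.0244, 13.6% of all genes), 0 against ATRA (0.652%) and 0 for the departure (0%). Over all genes the calls ranged over the alternatives from 369 to 2767 for ATRA (1590 as reported), from 39 to 1066 for palbociclib (318 as reported), from 629 to 3538 for the combination against untreated (2377 as reported), from 0 to 111 for the combination against ATRA (9 as reported), from 243 to 1839 for the combination against palbociclib (977 as reported), from 0 to 173 for the departure (0 as reported). Quantile normalization added TPI1, PGAM1 and LDHB as lower with the combination. Calls were also gained by LDHA without combination replicate 1 (with ATRA and for the combination against palbociclib), by HK1 with the combination against untreated without ATRA, palbociclib or combination replicate 1, and by PGD there without untreated replicate 2. The causes were not tested. Rounding to whole RPKM limits PFKFB3, PDK1 and every member under about 10 RPKM.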
